A study of Sus scrofa with 6 samples.

Results

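Solute carriers are the membrane proteins that move sugars, amino acids, organic ions, metals and metabolites across the plasma membrane or an organelle membrane, and their transcripts were followed here in the renal medulla of pigs. Members were the probe sets (groups of array probes that together read 1 transcript) whose single annotated gene symbol begins with SLC, a family number and A, or with SLCO. The SLC16 family and SLC2A1, SLC5A3, SLC6A6, SLC6A8, SLC6A12, SLC14A2, SLC40A1 and SLC11A2 were left out. This gave 163 probe sets of 109 genes in 37 families, out of 23999 probe sets tested, and of 6765 genes with a probe set of 1 symbol. Of all 24123 probe sets on the array, controls included, 10099 carried 1 gene symbol. SLC25, known as the mitochondrial carrier family, was the largest of these families, with 21 genes and 27 probe sets. SLC9A3R1, SLC9A3R2 and SLC2A4RG met the spelling of the rule but are not transporters, the first pair being scaffold proteins and the last a regulator of transcription.

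The animals were Large White-Landrace crossbred pigs (White-Landrace in the sample labels) in 2 groups of 3, with 1 Affymetrix porcine array for each animal. The Sham group had 2.5 hours of general anaesthesia. Sham animals also had a neck dissection and systemic heparin. The CPB group had 2.5 hours of cardiopulmonary bypass, in which a pump and an oxygenator take over from heart and lungs, under the same kind of anaesthesia. Medulla was taken 24 hours after the procedure from both groups, as blocks of the outer medulla, and the comparison asks which transcripts differ there after bypass. All 6 animals were anaesthetised and heparinised, and no untreated animal was among the samples used here. Replicate numbers do not mark a shared animal, so the arrays of each group are separate animals and the values below are given in the order Sham 1, Sham 2, Sham 3 and then CPB 1, CPB 2, CPB 3.

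In the kidney the proximal tubule recovers most filtered glucose, amino acids, phosphate and bicarbonate. Apical carriers, many of them driven by sodium, take solutes up from the lumen, and basolateral carriers pass them on to the blood or bring organic anions and cations in for secretion. The straight end of the proximal tubule runs into the outer medulla, beside the thick ascending limb, collecting ducts and vasa recta, and its supply of energy depends on mitochondria, whose SLC25 carriers exchange ADP, ATP, phosphate, citrate, carnitine esters and metals across the inner membrane.

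Array medians were alike, between 94.3 and 96.5 intensity units. Of the marker genes that are not solute carriers, 4 of 7 thick ascending limb genes and 4 of 9 collecting duct genes had a probe set of their own name. The water channel AQP3, a collecting duct gene, read 4831, 1048 and 2590 in Sham and 1080, 5437 and 1280 in CPB, and the thick ascending limb potassium channel KCNJ1 read 2219, 1251 and 881 in Sham and 1249, 2128 and 835 in CPB. Both genes were present on every array, as a label of medulla implies, and both were highest on Sham 1 among the Sham arrays and on CPB 2 among the CPB arrays. PTGER3 and AVPR2 shared that order, while EGF, HSD11B2 and SCNN1B were highest on Sham 2 and CPB 1 and CLDN10 on Sham 1 and CPB 3. Genes of the proximal tubule were also measured on every array and varied more, as described with the carriers they accompany. Of the 4 measured urothelial genes (of 10 listed) UPK1A, UPK1B and UPK2 were brightest on Sham 3 and UPK3A on CPB 2, and UPK1B read 207, 33.4 and 1208 in Sham and 35.3, 116 and 28.4 in CPB.

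None of the members, which do not include SLC16 or the other genes left out above, changed after bypass by the rule of the study, an unadjusted p under 0.05 with at least a 1.6-fold difference, when limma was fitted to the log2 intensities of all probe sets. Of the 163 member probe sets 0 passed that rule, against 0.304% of all probe sets tested (0.0875% higher and 0.217% lower in CPB). A single member, SLC5A6, had an unadjusted p under 0.05, which is 0.613% of members against 1.4% of all probe sets. With Benjamini-Hochberg adjustment over all probe sets limma called 0 members and 0.0% of all probe sets, the smallest adjusted p being 0.995. The equal-variance Student test of the study's methods gave 0 members with an unadjusted p under 0.05 on log2 values and 0 on linear values. Each form called 2.08% of all probe sets. Those counts depended on single arrays. Without Sham 2 there were 10 members at the study's rule, 4 of them lower and 6 higher in CPB, while 2.92% of all probe sets passed. Without CPB 2 there were 12, of which 11 were higher and 1 was lower, with 2.89% of all probe sets passing. Without Sham 1 there was 1, with 0.242% of all probe sets passing.

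The direction of the mean differences was uneven all the same. The mean log2 intensity was higher in CPB for 115 member probe sets and lower for 48, so that 70.6% were higher against 55.9% of all probe sets tested. Counting each gene once, by its brightest probe set, 80 genes were higher and 29 lower, with a median log2 difference (CPB minus Sham) of 0.12, beside 0.03 over all probe sets. A difference of at least 1.6-fold was reached by 16 member probe sets. All 16 were higher in CPB and in all 16 the groups overlapped, and 10 of them belonged to genes of the proximal tubule lists described below. The share of all probe sets at that fold, without regard to p, was not counted. For 104 of the 109 genes the range over the 3 Sham arrays was larger than the difference between the groups, as it was for 92.2% of all probe sets.

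The proximal tubule carriers had a higher median difference than the other solute carriers, and a wider median spread between animals. Of 34 genes listed as apical and 16 listed as basolateral carriers of that segment, 22 had a probe set of their own name. All 22 means were higher in CPB, the median log2 difference being 0.64, and 0 of them passed limma's unadjusted threshold. Their median range was 3.97-fold over the Sham animals and 4.53-fold over the CPB animals, beside 1.32-fold and 1.28-fold for all probe sets. The other 87 genes had a median log2 difference of 0.08 and median ranges of 1.47-fold in Sham and 1.40-fold in CPB. In 19 of the 22 (86.4%) Sham 1 was the lowest and Sham 2 the highest of the Sham arrays and CPB 2 was the lowest of the CPB arrays, an order held by 15.6% of all probe sets and by 14 of the 87 other solute carrier genes (16.1%). That order was described after the values had been seen.

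The same order stood in genes of the proximal tubule that are not solute carriers. All 10 of the measured markers (of 15 listed) followed it, among them the endocytic receptor LRP2 and the gluconeogenic enzymes PCK1 and FBP1. Their summed intensity ran from 2380 to 26261 in Sham and from 3669 to 33347 in CPB. The lowest single value was 14.7, for HPD on Sham 1. Centred on each gene's mean, these markers averaged −2.48, 1.18 and −0.28 log2 units on Sham 1, 2 and 3, and 1.5, −1.64 and 1.73 on CPB 1, 2 and 3. On the same scale the 16 apical carriers averaged −1.16, 0.72 and −0.38 in Sham and 0.81, −0.98 and 0.99 in CPB. The 6 basolateral carriers averaged −1.67, 0.91 and −0.43 in Sham and 1.22, −1.46 and 1.43 in CPB. Carriers and markers were thus low together on Sham 1 and CPB 2, intermediate on Sham 3, and high together on Sham 2, CPB 1 and CPB 3. With the mean of the markers as a covariate in limma, the median difference of the 22 carriers was 0.01. The part that the markers play in the differences between the groups was not tested, and in whole tissue fewer cells of a type and less RNA per cell cannot be told apart.

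**Figure D1:**
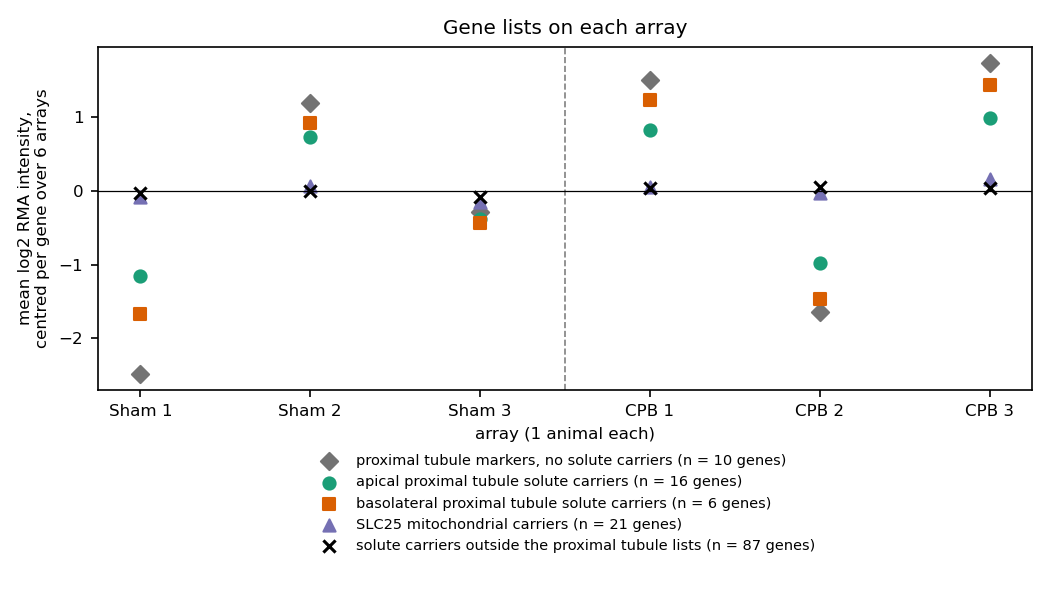
Mean log2 RMA intensity of each gene list on each array (1 animal each), after each gene was centred on its mean over the 6 arrays; points are list means. Apical and basolateral proximal tubule carriers sit low on Sham 1 and CPB 2 and high on Sham 2, CPB 1 and CPB 3, beside the proximal tubule markers, while the 21 SLC25 genes and the 87 solute carriers outside the proximal tubule lists stay close to 0.

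Among the apical carriers of amino acids, SLC7A9, SLC3A1 and SLC1A1 spread widely and SLC36A2 did not. SLC7A9, the light chain of the transporter for cystine and basic amino acids, read 22, 549.7 and 153 in Sham and 541, 25.1 and 957 in CPB. Sham 1 and CPB 2 were at nearly the same low value and the groups overlapped throughout, with a 25-fold range in Sham and a 38.1-fold range in CPB. Its log2 difference was 0.94 with a standard error of 1.72 (limma, unadjusted p = 0.607). SLC3A1, the heavy chain that brings SLC7A9 to the brush border, read 125, 1672 and 423 in Sham and 1096, 107 and 1672 in CPB. The highest Sham and CPB arrays were equal, and the log2 difference was 0.38 with a standard error of 1.33 (limma, unadjusted p = 0.783). SLC1A1, which takes up glutamate and aspartate, read 44.9, 874 and 218 in Sham and 759, 80.9 and 959 in CPB, again with a low array in each group. Without Sham 1 the log2 differences of SLC7A9 and SLC3A1 turned to −0.31 and −0.53, and without CPB 3 to −0.08 and −0.38. With the marker covariate they were −0.52 for SLC7A9 and −0.74 for SLC3A1 (limma, unadjusted p = 0.0136 for SLC3A1, adjusted p = 1.0).

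Sugar carriers of the brush border behaved differently from one another within Sham. SLC5A1, the sodium glucose cotransporter of the late proximal tubule, read 115, 159 and 138 in Sham and 345, 75.7 and 319 in CPB. The Sham animals lay within 1.39-fold of each other, while CPB 1 and CPB 3 were above every Sham array and CPB 2 below every Sham array. The log2 difference was 0.57 with a standard error of 0.60 (limma, unadjusted p = 0.374). Without CPB 2, the array below every Sham array, it was 1.28 (limma, unadjusted p = 0.000618, adjusted p = 0.742). Over all fits with 1 array left out the SLC5A1 difference ran from 0.19 to 1.28. SLC5A1 was 1 of 5 genes whose difference exceeded the range over the Sham arrays. The fructose carrier SLC2A5 read 49.6, 348 and 118 in Sham and 381, 65.8 and 581 in CPB, and SLC5A10, a sodium-coupled carrier of mannose and fructose, read 206, 913 and 183 in Sham and 776, 260 and 957 in CPB. Both of these followed the low values of Sham 1 and CPB 2, although the lowest Sham value of SLC5A10 was on Sham 3. The sodium glucose carrier of the early tubule, SLC5A2, and the phosphate carrier SLC34A1 had no probe set of their own name and were not analysed here.

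The vitamin, nucleoside and anion carriers of the brush border moved over a smaller range. SLC46A1, a proton-coupled folate carrier, read 156, 463 and 192 in Sham and 521, 181 and 614 in CPB, and its log2 difference was 0.69 with a standard error of 0.60 (limma, unadjusted p = 0.298). SLC23A1, which recovers ascorbate, read 51.5, 94.6 and 56.7 in Sham and 113, 56.9 and 125 in CPB, a log2 difference of 0.51 with a standard error of 0.38 (limma, unadjusted p = 0.223). For both genes CPB 1 and CPB 3 exceeded every Sham array and CPB 2 lay inside the Sham range. SLC28A1, a sodium-coupled carrier of pyrimidine nucleosides, read 35.1, 72.9 and 40.1 in Sham and 101, 39.3 and 82.8 in CPB. SLC26A6, which exchanges chloride for oxalate and other anions, read 52.2, 165 and 55.5 in Sham and 138, 88 and 161 in CPB. In SLC26A6 the Sham 2 array was above every CPB array and the other Sham arrays were below every CPB array. Without Sham 2 the log2 difference was 1.22 (limma, unadjusted p = 0.00888, adjusted p = 0.533) in place of 0.68. Without CPB 2, SLC23A1, SLC28A1 and SLC46A1 passed the study's rule with log2 differences of 0.87, 0.97 and 1.24. The lowest differences with 1 array left out were 0.30, 0.29 and 0.35 for these genes and 0.39 for SLC26A6.

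The remaining apical carriers covered both extremes of spread. SLC17A1, an organic anion and phosphate carrier, read 24, 491 and 71.9 in Sham and 434, 35.4 and 568 in CPB, a 20.4-fold range in Sham. SLC15A2, which recovers small peptides in the straight segment, read 111, 552 and 380 in Sham and 575, 89.2 and 622 in CPB, and its log2 difference was 0.15 with a standard error of 0.94. With the marker covariate the SLC15A2 difference was −0.63 (limma, unadjusted p = 0.0209, adjusted p = 1.0). In contrast the sodium proton exchanger SLC9A3 read 46.3, 60.7 and 55 in Sham and 55.9, 51.7 and 65 in CPB. The peptide carrier SLC15A1 kept between 88.9 and 108 on all arrays, and the amino acid carrier SLC36A2 was among the dimmest 25% of probe sets with values from 11.4 to 14.3. SLC22A5, the carnitine carrier, read 138, 83 and 125 in Sham and 176, 148 and 88.7 in CPB, with Sham 2 and CPB 3 lowest, an order shared with none of the other 15 apical genes.

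The basolateral side held the carriers for organic ion secretion. SLC22A8, an organic anion transporter, read 78.7, 1341 and 353 in Sham and 1801, 121 and 1908 in CPB, and its log2 difference was 1.16 with a standard error of 1.44 (limma, unadjusted p = 0.452). SLC22A6, the para-aminohippurate carrier, read 93.2, 558 and 194 in Sham and 385, 132 and 594 in CPB, a log2 difference of 0.53 with a standard error of 0.81. SLC22A2, an organic cation transporter, read 403, 3155 and 933 in Sham and 4876, 373 and 3486 in CPB, a log2 difference of 0.81 with a standard error of 1.18. In all of these the lowest and the next lowest array were Sham 1 and CPB 2, 1 from each group, and the spread within a group was 4.51-fold or more. SLC22A6 turned to −0.08 without Sham 1. With the marker covariate SLC22A8, SLC22A6 and SLC22A2 were at −0.06, −0.14 and −0.17.

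The other basolateral carriers return bicarbonate, glucose and amino acids to the blood. SLC4A4, the electrogenic sodium bicarbonate cotransporter, read 55, 416 and 184 in Sham and 707, 59.5 and 779 in CPB, and its log2 difference was 0.99 with a standard error of 1.21 (limma, unadjusted p = 0.446). SLC2A2, the glucose exit carrier, read 38.3, 115 and 54.5 in Sham and 156, 32.9 and 208 in CPB, a log2 difference of 0.72 with a standard error of 0.78. SLC7A7, which exports basic amino acids together with SLC3A2, read 101, 256 and 169 in Sham and 280.5, 134 and 401 in CPB, a log2 difference of 0.59 with a standard error of 0.50. CPB 1 and CPB 3 lay above every Sham array in all 3 genes, and CPB 2 lay below 2 or more of the Sham arrays. Without CPB 2 the log2 differences of SLC4A4 and SLC2A2 were 2.20 and 1.54, and both passed the study's rule. Their lowest differences with 1 array left out were 0.209 and 0.206.

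**Figure D2:**
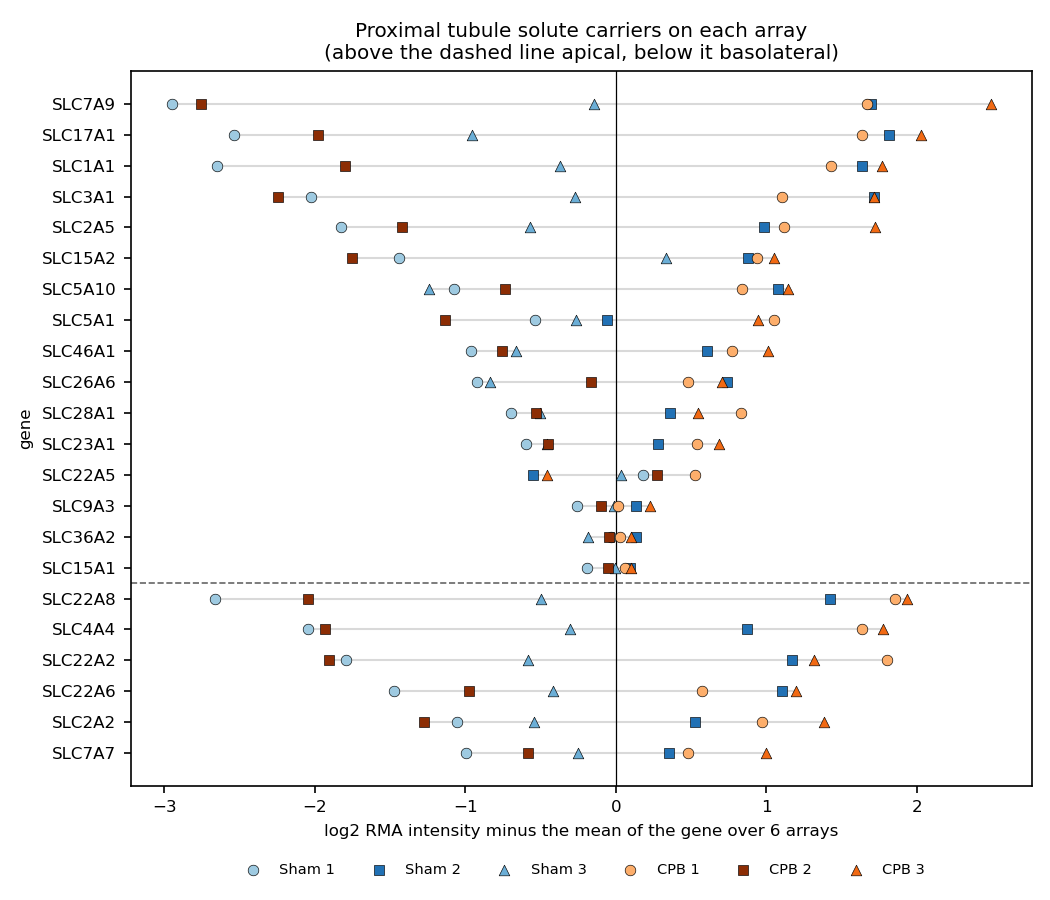
Log2 RMA intensity of each of the 22 proximal tubule carriers on each array, minus the gene's mean over the 6 arrays; points are single animals, blue for Sham and orange for CPB, grey bars join the lowest and highest, and the dashed line parts apical from basolateral genes. In most genes Sham 1 and CPB 2 lie together at the low end. In SLC5A1 the Sham animals stay close together while CPB 1 and CPB 3 lie above them and CPB 2 below, and SLC9A3, SLC36A2 and SLC15A1 are narrow in both groups.

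A further list was drawn up as partners of these carriers, though an endocytic receptor and a transcription factor are among its genes. Of 11 listed, 7 were measured, namely AMN, DAB2, HNF4A, LRP2, PDZK1, PDZK1IP1 and TMEM27. All 7 means were higher in CPB, by a median log2 difference of 0.65. All 7 genes had the same order of the arrays as the proximal tubule carriers (LRP2 stands in this list and among the markers). The brush border scaffold PDZK1 read 563, 3278 and 1315 in Sham and 4108, 628 and 3743 in CPB, and HNF4A, a transcription factor of proximal tubule cells, read 163, 1496 and 559 in Sham and 1646, 186 and 1718 in CPB. SLC9A3R1, a scaffold that holds SLC9A3 and phosphate carriers at the brush border, read 800.1, 2298 and 1004 in Sham and 3729, 1218 and 3006 in CPB. CPB 2 lay inside the Sham range for SLC9A3R1 and the other CPB arrays above it, with a log2 difference of 0.96 and a standard error of 0.56 (limma, unadjusted p = 0.135). Without Sham 2 or CPB 2 that difference was 1.42 or 1.45, past the study's rule each time. The related scaffold SLC9A3R2 had the opposite order, with 570, 229 and 336 in Sham and 271, 789 and 191 in CPB. The sodium pump maintains the gradient that the carriers use, and 3 of its 5 listed genes were measured. ATP1B1, ATP1B3 and FXYD2 had log2 differences of 0.01, −0.64 and 0.19. ATP1B3 read 1625, 653 and 1976 in Sham and 675, 1210 and 674 in CPB (limma, unadjusted p = 0.22).

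Few carriers of the later nephron had a probe set of their own name. Of 16 listed, 3 were measured, and SLC12A1, SLC12A3, SLC4A1 and SLC14A1 were not analysed here. SLC4A2, a chloride bicarbonate exchanger found along the tubule, read 139, 149 and 139 in Sham and 145, 154 and 140 in CPB, a log2 difference of 0.04 with a 95% interval from −0.21 to 0.30. SLC8A1, the sodium calcium exchanger of the distal convoluted and connecting tubule, read 75.8, 101 and 85.9 in Sham and 102, 70.1 and 118 in CPB, a log2 difference of 0.12 with an interval from −0.44 to 0.67. Both ranged less within each group than the median of the proximal tubule carriers, and both intervals stay inside a 1.6-fold change. SLC8A1 had the array order of the proximal tubule carriers on a narrow range. SLC9A4, a sodium proton exchanger, read 54.4, 27.3 and 151 in Sham and 22.8, 69.1 and 37.3 in CPB, a log2 difference of −0.64 with a standard error of 0.70 (limma, unadjusted p = 0.394). Its highest array was Sham 3, and without Sham 3 the difference was 0.01. Of the 4 measured urothelial genes 3 were also highest on Sham 3 and UPK3A on CPB 2, their summed intensity running from 196 to 1931 in Sham and from 184 to 1054 in CPB, and their part in the SLC9A4 values was not tested. The kinases that regulate distal sodium transport, of which WNK1, WNK4, OXSR1 and SGK1 were measured, had a median log2 difference of −0.03.

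A different order of the animals was held by some other carriers, at about the share of all probe sets. In 17 of the 87 genes outside the proximal tubule lists (19.5%) Sham 2 was the lowest Sham array and CPB 2 the highest CPB array, as it was in 20.3% of all probe sets and in 0 of the 22 proximal tubule carriers. SLCO3A1, an organic anion transporter expressed in many tissues, read 1483, 304 and 875 in Sham and 358, 1615 and 172 in CPB. SLC7A1, a carrier of arginine and lysine, read 408, 169 and 364 in Sham and 180.0, 634 and 112 in CPB. In both genes the lowest and the highest array were CPB animals, and the log2 differences were −0.66 with a standard error of 0.95 and −0.33 with a standard error of 0.70. SLC38A1, a sodium-coupled glutamine carrier, read 134, 62.8 and 115 in Sham and 60.3, 163 and 31.3 in CPB. Its log2 difference was −0.55 with a standard error of 0.63, and without CPB 2 it was −1.19, the 1 member that passed the study's rule in the lower direction there. SLC7A1 turned to 0.21 without CPB 3 and to 0.20 with the marker covariate. The endothelial receptor TEK, a marker that is no solute carrier, read 776, 337 and 657 in Sham and 272, 642 and 241 in CPB, also lowest on Sham 2 and highest on CPB 2 within its groups. That order was held by 4 of the 7 measured endothelial markers, while FLT1 and KDR were highest on Sham 2 among the Sham arrays, and by 2 of the 4 collecting duct and 1 of the 4 thick ascending limb markers. The part of these cell types in the carriers' values was not tested.

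SLC44A2, a choline transporter-like protein, was read by 3 probe sets. The brightest read 371, 190 and 229 in Sham and 179, 403 and 131 in CPB, and the log2 differences of the 3 were −0.26, −0.40 and −0.67. Without Sham 2, 2 of them passed the study's rule with −0.70 and −1.07. SLC45A3, of a family of sugar carriers, read 171, 84.7 and 250.3 in Sham and 105, 158 and 92.1 in CPB and also passed without Sham 2, with −0.84. In both genes Sham 2 was the lowest and CPB 2 the highest animal of its group, and the groups overlapped.

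**Figure D3:**
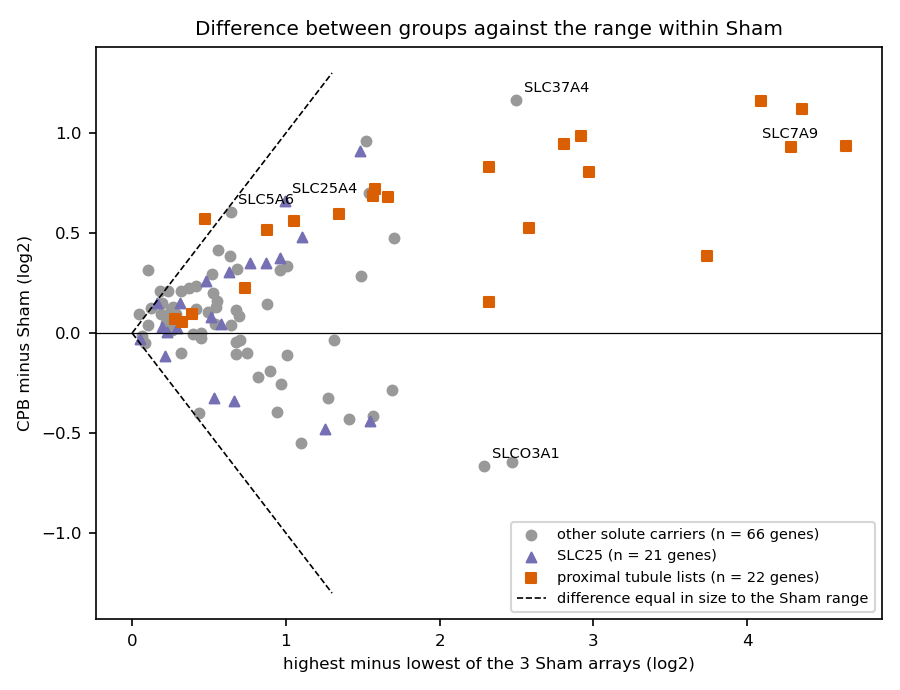
Difference between group means (CPB minus Sham, log2) against the range over the 3 Sham arrays (log2) for the 109 solute carrier genes, 1 point a gene; outside the dashed lines the difference is larger than the Sham range. All proximal tubule carriers have differences above 0 and most lie to the right, with SLC15A1, SLC36A2, SLC9A3 and SLC5A1 at the left, and 104 of the 109 genes lie between the lines.

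The SLC25 genes had a median range of 1.49-fold over Sham and 1.40-fold over CPB, beside 1.32-fold and 1.28-fold for all probe sets. In CPB 15 of the 21 genes were higher and 6 lower by their means, the median log2 difference being 0.08, and 0 passed limma's unadjusted threshold or any stricter rule. The array order of the proximal tubule was held by SLC25A1 and SLC25A20. By role, the 8 measured carriers of nucleotides and phosphate had a median log2 difference of 0.04, the 3 of carboxylates 0.35, the 4 of amino acids and carnitine 0.20, and the 4 of cofactors, metals and uncoupling 0.21. Without Sham 2 the median of the family was 0.19.

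The 3 SLC25 genes named for their intensity all serve oxidative phosphorylation. SLC25A3, which imports phosphate, read 3782, 3596 and 3298 in Sham and 3701, 3508 and 3692 in CPB, a log2 difference of 0.03 with an interval from −0.23 to 0.30. SLC25A6, an ADP/ATP translocase, read 4244, 4102 and 4220 in Sham and 3877, 4999 and 3573 in CPB, a log2 difference of −0.03 with an interval from −0.40 to 0.34. Neither group of either gene stood apart, and both intervals stay inside a 1.6-fold change. Both signs rested on single animals, since SLC25A3 turned to −0.02 without Sham 3 and SLC25A6 to 0.07 without CPB 3. SLC25A5, another ADP/ATP translocase, read 2422, 2974 and 1921 in Sham and 3554, 1622 and 4530 in CPB, with CPB 2 below every Sham animal and the other CPB animals above them. Its log2 difference was 0.31 with a standard error of 0.40. It was 0.74 without CPB 2 (limma, unadjusted p = 0.0221, adjusted p = 0.742), and it came to 0 within rounding without CPB 3.

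SLC25A4, the ADP/ATP translocase known from heart and skeletal muscle, was the SLC25 gene whose groups did not overlap. It read 1022, 1045 and 525 in Sham and 1322, 1314 and 1269 in CPB. Every CPB animal was above every Sham animal, the CPB animals lay within 1.04-fold of each other, and Sham 3 stood well below the other Sham animals. The fold difference was 1.58, just under the study's minimum, and the log2 difference was 0.66 with a standard error of 0.28 and an interval from −0.03 to 1.35 (limma, unadjusted p = 0.0578, adjusted p = 0.995). Without Sham 3 the difference was 0.33 (limma, unadjusted p = 0.0368), and without Sham 1 or Sham 2 it was 0.81 or 0.83, past the study's rule. Sham 3 was also the array with the highest values of 3 of the 4 urothelial genes, and whether that bears on SLC25A4 was not tested.

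The other SLC25 genes with the smallest p-values differed in direction. SLC25A1, which exports citrate for lipid synthesis, read 495, 1379 and 549 in Sham and 1721, 854 and 1692 in CPB. Sham 2 lay within the CPB values and the other Sham animals below them, with a log2 difference of 0.91 and a standard error of 0.48 (limma, unadjusted p = 0.105). It passed the study's rule without Sham 2, at 1.38, and without CPB 2, at 1.24. Its lowest difference with 1 array left out was 0.64. SLC25A14, a carrier related to the uncoupling proteins, read 138, 86.9 and 105 in Sham and 90, 85.2 and 80.8 in CPB, a log2 difference of −0.34 with a standard error of 0.19. Its second probe set gave −0.31. SLC25A21, which carries oxoadipate, read 72.3, 62.5 and 90.3 in Sham and 51.8, 71.4 and 56.1 in CPB, a log2 difference of −0.33 with a standard error of 0.19. In SLC25A14 and SLC25A21 the lowest Sham animal lay inside the CPB values. SLC25A20, the carnitine acylcarnitine carrier of fatty acid oxidation, read 308, 663 and 325 in Sham and 717, 328 and 771 in CPB, in the order of the proximal tubule genes.

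**Figure D4:**
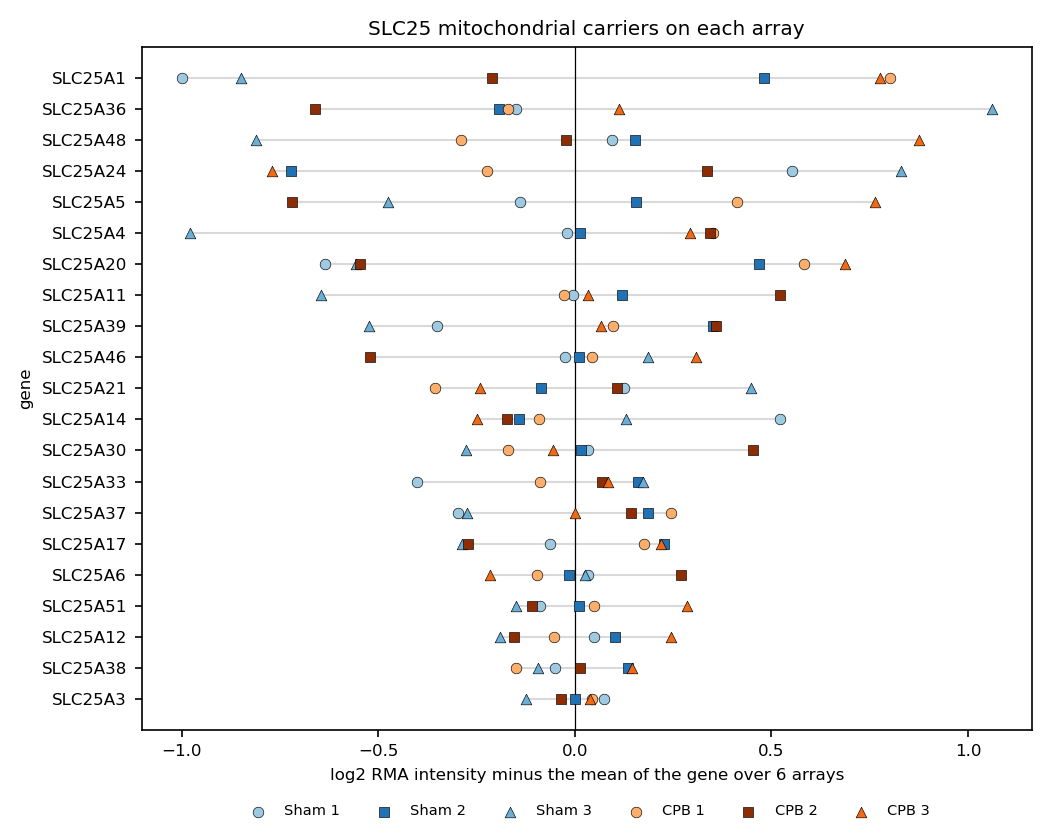
Log2 RMA intensity of the 21 SLC25 genes on each array, minus the gene's mean over the 6 arrays; points are single animals, blue for Sham and orange for CPB, and grey bars join the lowest and the highest. SLC25A4 is the gene with all CPB animals above all Sham animals, and SLC25A1 and SLC25A20 have Sham 1 and CPB 2 at the low end of their groups.

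SLC5A6, the sodium-dependent carrier of biotin, pantothenate and lipoate, was the member with the smallest p. It read 289.8, 449.9 and 288 in Sham and 560.4, 411 and 573 in CPB. Sham 2 was above CPB 2, so the groups overlapped, and CPB 1 and CPB 3 were above every Sham animal. The fold difference was 1.52, and the log2 difference was 0.60 with a standard error of 0.23 and an interval from 0.03 to 1.18 (limma, unadjusted p = 0.0417, adjusted p = 0.995). It was 0.82 without Sham 2 and 0.76 without CPB 2, both past the study's rule, and 0.44 with the marker covariate (limma, unadjusted p = 0.029, adjusted p = 1.0). The lowest SLC5A6 difference with 1 array left out was 0.495. Related sodium-coupled carriers of the SLC5 family were all higher by their means. Among them SLC5A4, a relative of SLC5A1, read 98.5, 78.4 and 66.8 in Sham and 117, 92.3 and 113 in CPB. Its log2 difference was 0.41 with a standard error of 0.18 (limma, unadjusted p = 0.0659).

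Few solute carriers had groups that did not overlap. All CPB arrays lay above all Sham arrays in 5 member probe sets, against 3.38% of all probe sets, and below them in 0 against 1.89%. In all, 3.07% of members did not overlap, against 5.27% of all probe sets, and the smallest p of an exact two-sided permutation test is 0.1 with 3 animals a group. Beside SLC25A4 they were SLC35A4, SLC31A1, SLC26A11 and SLC39A2, of different families and named after their values were seen. SLC35A4, an orphan of the nucleotide sugar carrier family, read 267, 268 and 249 in Sham and 276, 384 and 325 in CPB. SLC31A1, the copper importer of the plasma membrane, read 574, 583 and 451 in Sham and 600.3, 609 and 659 in CPB. SLC26A11, an anion exchanger, read 153, 139 and 163 in Sham and 163, 171 and 193 in CPB, with Sham 3 and CPB 1 equal after rounding. The zinc carrier SLC39A2 read 73.3, 75.4 and 75.4 in Sham and 76.8, 79.1 and 84 in CPB. These 4 differences were small, between 0.10 and 0.32 on the log2 scale, and the unadjusted p of SLC35A4 was 0.0777 by limma. SLC35A4, SLC31A1 and SLC26A11 each had a dimmer probe set whose groups overlapped. There CPB 2 read 150.9, 19.63 and 91.9, below Sham 2 at 173.8, 19.66 and 111.1.

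**Figure D5:**
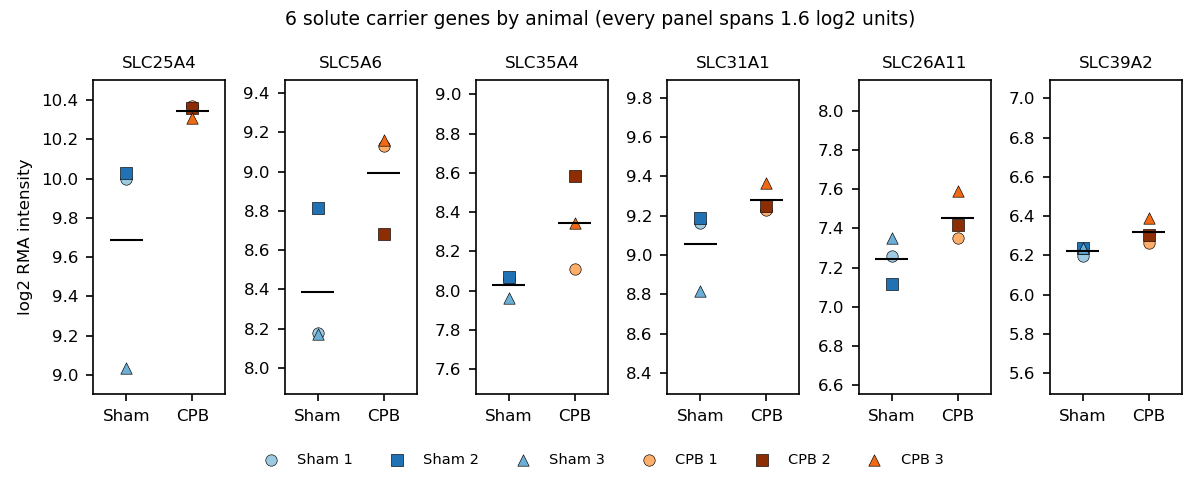
Log2 RMA intensity by animal for the 5 solute carrier genes whose groups do not overlap in their brightest probe set and for SLC5A6, the member with the smallest p; bars are group means and every panel spans the same height in log2 units. The gap between the highest Sham and the lowest CPB animal is widest in SLC25A4, and in SLC5A6 the Sham 2 animal lies above CPB 2.

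Carriers with roles in amino acid supply and in leukocytes pointed in no common direction. SLC3A2, the heavy chain of several amino acid exchangers, read 153, 238 and 201 in Sham and 251, 166 and 392 in CPB, a log2 difference of 0.39 with a standard error of 0.34. SLC1A5, which exchanges glutamine, read 275, 894 and 352 in Sham and 856, 353 and 767 in CPB, a log2 difference of 0.48 with a standard error of 0.54. Both had Sham 2 and CPB 1 and CPB 3 on the high side, as the proximal tubule genes did. SLC1A4, a carrier of alanine and serine, stayed between 108 and 130.4 on all arrays. With SLC7A1 these made 4 of 8 listed genes, at a median log2 difference of 0.20. Of 7 leukocyte carriers 2 were measured. The glucose carrier SLC2A3 read 129, 48.7 and 105 in Sham and 62.5, 116 and 37.6 in CPB, a log2 difference of −0.43 with a standard error of 0.53. SLC11A1, the phagosomal metal carrier of macrophages, was among the dimmest 25%, from 20.4 to 28.6 on all arrays, with a log2 difference of −0.00437 that became 0.00653 when arrays were centred on their medians. Of 10 macrophage and granulocyte markers 8 were measured, with a median log2 difference of 0.11. Of these 4 were among the dimmest 25% of probe sets and higher in CPB by their means. Above that limit CD14 and AIF1 were at 0.15 and 0.0059, and CD163 and TYROBP at −0.47 and −0.31.

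Outside all of these lists SLC37A4 stood out, and it was named after its values were seen. It carries glucose 6-phosphate into the endoplasmic reticulum, the step before glucose is released in gluconeogenic cells. Its brighter probe set read 314, 1776 and 780 in Sham and 2337, 747 and 2803 in CPB, and the other 212, 1067 and 509 in Sham and 1479, 283 and 1988 in CPB. Both probe sets had the order of the proximal tubule carriers, and the differences were 1.16 with a standard error of 0.77 and 0.95 with a standard error of 0.90 on the log2 scale (limma, unadjusted p = 0.18 and 0.333). Without CPB 2 the dimmer probe set was at 1.82 and passed the study's rule, which the brighter did not, and with the marker covariate the brighter was at 0.52 (limma, unadjusted p = 0.0137, adjusted p = 1.0). SLC44A4, a choline transporter-like protein of epithelia, read 295, 860 and 377 in Sham and 879, 527 and 882 in CPB, and its log2 difference of 0.70 became 1.15 without Sham 2, past the study's rule. SLC27A6, a fatty acid transport protein, had 1 probe set of 3 with a wide spread, at 18.4, 111 and 65.2 in Sham and 110, 14.1 and 402 in CPB.

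By family, the larger groups were mixed. Of the 7 SLC2 genes, the facilitative sugar carriers and SLC2A4RG, 4 were higher and 3 lower by their means, with a median log2 difference of 0.06. Of the 6 SLC39 zinc importers 4 were higher and 2 lower at a median of 0.12, and of the 5 SLC9 genes, sodium proton exchangers and scaffolds, 3 were higher and 2 lower at a median of 0.08. The 6 glutamate and neutral amino acid carriers of SLC1 were all higher by their means, from 0.01 to 0.93 at a median of 0.19. Of these SLC1A2, SLC1A3 and SLC1A6 were among the dimmest 25% of probe sets. SLC1A2 read 25.6, 9.7 and 9.1 in Sham and 9.7, 42.7 and 9.9 in CPB. SLC1A1 and SLC1A5 were the SLC1 genes with the order of the proximal tubule genes on a wide range.

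Most remaining carriers differed little. In the zinc families the SLC39A1 importer kept between 358 and 574 and SLC30A5 between 201 and 291 by their brightest probe sets. A dimmer SLC30A5 probe set spread more, from 81.6 on CPB 2 to 235 on CPB 3, with a log2 difference of −0.04. SLC39A14, which takes up zinc and iron, read 71.5, 95.5 and 72.9 in Sham and 88.1, 98.4 and 93.8 in CPB, a log2 difference of 0.24 with a standard error of 0.15. SLC50A1, a sugar carrier of internal membranes, read 156, 116 and 124 in Sham and 99.2, 117 and 83.8 in CPB, and at −0.40 with a standard error of 0.18 it had the smallest p of the lower members (limma, unadjusted p = 0.0724). SLC52A2, a riboflavin carrier, stayed between 145 and 165, and the organic anion carrier SLCO2B1 between 225 and 340.4. At these spreads the intervals of SLC52A2 and SLC39A14 reach from −0.32 to 0.22 and from −0.13 to 0.60. The dimmest 25% of probe sets held 29 of the 163 member probe sets, among them all 3 of SLCO1A2, and for those a difference would be hard to see.

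Probe sets of 1 gene did not always run together. Of 37 genes with more than 1 member probe set, 29 had the same sign of difference in all and 8 did not. SLC3A1 was the clearest case, as its second probe set read 384, 214 and 421 in Sham and 293, 191 and 263 in CPB, without the low value on Sham 1, and gave −0.41 where the brighter gave 0.38. Without Sham 2 the second probe set was at −0.72 and met the study's rule in the lower direction. For SLC4A4 the second probe set read 51.9, 79.7 and 57.1 in Sham and 69.8, 53.5 and 72.8 in CPB, the same order on a narrow range. All 3 probe sets of SLC15A2 and both of SLC46A1 were lowest on Sham 1 and CPB 2 within the groups. SLCO3A1 was lowest on Sham 2 and highest on CPB 2 within the groups in all 4 of its probe sets, with log2 differences from −0.66 to −0.25.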

How the data were processed

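Medulla RNA of 6 pigs was hybridised to 1 Affymetrix porcine array each, with 3 arrays per group. The deposited values are intensities on a linear scale, which the authors made from the scans by robust multi-array averaging (RMA: background correction, quantile normalisation and a summary over the probes of a set). Depth is not defined for arrays, and their number limits the precision. Intensities were converted to log2, 124 control probe sets were left out, and CPB was compared with Sham in limma 3.58.1 (R 4.3.3), with a group term, eBayes and Benjamini-Hochberg adjustment over 23999 probe sets. limma's moderated test replaced the Student test of the study's methods, which was run as an alternative, and the fitting was tested on simulated data. The rule of the study, an unadjusted p under 0.05 and a fold of at least 1.6, was set on these limma results. A log2 difference is CPB minus Sham, a fold is 2 to that power, and intervals are 95%. Probe sets were named through the platform annotation (198 had several symbols and 13826 were not listed). The gene ID of 162 of the 163 members was in the RefSeq gene table, with 0 different symbols. Where a gene had several probe sets, the brightest by mean log2 stood for it.

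Members and gene lists were chosen with earlier results of these data known, so lists are described by counts and medians and not tested. Named members were those with unadjusted p under 0.05, those without overlap and at least 1.6-fold, up to 4 with the smallest p and the brightest of each segment or role list, the brightest 3 and up to 4 with the smallest p in SLC25, and the segment-defining genes measured. Others were named after their values were seen. Of 12 segment-defining genes, 7 had no probe set of their own name and were not analysed here. Another 5 probe sets that list a solute carrier among several symbols were not members. An intensity of 1 probe set is not comparable with that of another. Alternatives were the methods' test, a trend and robust prior, array weights, a second quantile normalisation, median centring, dropping the dimmest 25%, keeping controls, a replicate block, a covariate of 10 proximal tubule markers, other fold minimums of 1.5 and 2, other ways to combine probe sets, and leaving out each array.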

Additional observations from a re-analysis of the deposited data

How the results depend on the processing

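Of the 163 member probe sets 134 lay above the dimmest 25%, and 3 arrays a group limit what could be called. The count of members at the study's rule, 0, became 36 (27 higher, 9 lower) with array weights, against 8.82% of all probe sets. The estimate of those weights stopped short of convergence and gave CPB 1 a weight of 6.165. The count was 2 (1 higher, 1 lower) with the proximal tubule marker covariate, against 0.45% of all probe sets, and 1 (1 higher) at a fold minimum of 1.5. Leaving out 1 array gave 0 to 12, with 0 to 11 higher and 0 to 4 lower, while 0.217% to 2.92% of all probe sets passed. Members with an unadjusted p under 0.05, 1 by limma, were 0 with either form of the methods' t-test (2.08% of all probe sets). They were 0 with a trend and robust prior (1.4%) and 0 after a second quantile normalisation (1.53%). With array weights they were 53 (22.9%), with the covariate 6 (2.37%), and with 1 array left out 0 to 16 (0.675% to 9.24%). With array weights the median of the 87 genes outside the proximal tubule lists was 0.13. Leaving out 1 array gave medians of 0.0305 to 0.139 for those 87 genes, 0.0203 to 0.194 for SLC25 and 0.17 to 1.26 for the 22 proximal tubule carriers. The cause was not tested.

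Replicate numbers do not pair the animals (correlations of same-numbered deviations −0.389, −0.681 and −0.0163). A replicate block gave 0 members at the study's rule, against 0.317% of all probe sets. It gave 1 member with an unadjusted p under 0.05, against 1.12%, which was SLC22A3 (−0.396) in place of SLC5A6.

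Directions turned for SLC11A1 with median centring (0.00653) and the covariate (0.0558), for SLC1A4 with array weights (−0.0163), and with the covariate for SLC22A2 (−0.167), SLC22A6 (−0.139), SLC22A8 (−0.0611), SLC25A6 (0.0492), SLC3A1 (−0.739), SLC4A4 (−0.0250), SLC7A1 (0.203), SLC7A9 (−0.521) and SLC8A1 (−0.0466). Leaving out 1 array turned 11 named genes in at least 1 setting, with ranges of −0.132 to 0.0805 for SLC11A1, −0.056 to 0.0837 for SLC1A4, −0.0798 to 1.21 for SLC22A6, −0.0217 to 0.0769 for SLC25A3, −0.000127 to 0.741 for SLC25A5, −0.170 to 0.0719 for SLC25A6, −0.531 to 1.6 for SLC3A1, −1.05 to 0.205 for SLC7A1, −0.305 to 2.55 for SLC7A9, −0.0415 to 0.333 for SLC8A1 and −1.22 to 0.0141 for SLC9A4.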
